A study of Homo sapiens with 18 samples.

Results

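Wide H3K27me3 domains were followed in MOLM-13, an established line of human acute myeloid leukemia that carries a KMT2A rearrangement, after exposure to PR-957, an inhibitor of the immunoproteasome subunit PSMB8, or to its solvent DMSO. The modification was mapped by Cut&Tag, in which an antibody directs the Tn5 transposase to cut and tag DNA beside a histone modification. Overlapping intervals of the H3K27me3 count tables were merged into 13899 loci, and the 787 loci with a merged width of 15 kb or more were chosen by width alone. They are 5.66% of the loci and 31.6% of the merged length, 21.4 of 67.5 Mb. The intervals and the counts come from the same experiment, so that the width and the H3K27me3 level of a domain are not independent, and both are given as a description.

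By the labels, the groups differ in what was added to the MOLM-13 cells, PR-957 at 100 nM or DMSO. The sample labels give a treatment time of 72 h, whereas a legend of the study gives a shorter one. Each treatment had 2 libraries for each of H3K27me3, H3K27ac, H3K4me1 and H3K4me3, which makes 16 libraries. Samples with IgG, 2 in number, are not analysed here. Nothing in the labels says that the 2 libraries of a group came from separate cultures, so the p-values measure the spread between these libraries, which may be technical. The H3K27me3 libraries held 10032503 to 12047958 counts on all listed intervals, of which 2644014 to 3235087 lay on the 1 interval kept per locus. As a check of the label, 9 of 10 myeloid marker promoters, among them SPI1 and CEBPA, had an H3K4me3 interval within 2 kb and none had one of H3K27me3, while MPO had neither. Of 17 marker genes of B cells, T cells, erythroid cells and epithelium, 6 had an H3K4me3 interval, and the promoters of PAX5, GATA3 and BCL11B lay inside wide H3K27me3 domains.

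H3K27me3 is written by the Polycomb repressive complex PRC2, whose catalytic subunit is EZH2, and it marks genes that are kept silent. In differentiated cells it forms broad stretches over the genes of developmental transcription factors, which carry CpG islands, that is, unmethylated stretches rich in the dinucleotide CG. Leukemias with a KMT2A rearrangement are known for active HOXA genes, which in other cells are typical Polycomb targets.

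Every wide domain had 3 to 17 overlapping intervals in the tables, with a median of 6. Counts were taken from the widest interval, which covered a median of 96.2% of its domain and under 50% in 13 domains. The median width was 22.3 kb against 2.33 kb for the other loci, 207 domains reached 30 kb, 47 reached 50 kb and 6 reached 100 kb. Of the 787, 535 held the transcription start site (TSS) of 1 to 10 protein-coding genes in GENCODE release 44, and the other 252 lay a median of 36.0 kb from the nearest such TSS. The 688 genes concerned are 3.54% of 19418 protein-coding genes. The median GC content was 52.7% in wide domains and 50.2% over all loci, and the median CpG density was 24.7 and 16.6 per kb. In wide domains, 12.2% of the bases were also in H3K4me1 loci, 9.56% in H3K4me3 loci and 6.41% in H3K27ac loci. In the other H3K27me3 loci the shares were 7.51%, 9.94% and 8.91%.

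The promoters of 6 genes are shown because their domains carry the results below, namely the widest domains at HOXD10, LMX1B and TLX1, the strongly lower domains at IL20RA and ARHGEF12, and the higher domain at CRIP1. Each is the 250 bases before the start site in RefSeq (GRCh38.p14), written 5′ to 3′ on the strand of the gene, with every CG in capitals. HOXD10 (+ strand, chr2:176116528-176116777) holds 23 CGs, LMX1B (+ strand, chr9:126613678-126613927) 38, TLX1 (+ strand, chr10:101131050-101131299) 14, IL20RA (− strand, chr6:137044966-137045215) 13, ARHGEF12 (+ strand, chr11:120336163-120336412) 42 and CRIP1 (+ strand, chr14:105486636-105486885) 17.
HOXD10: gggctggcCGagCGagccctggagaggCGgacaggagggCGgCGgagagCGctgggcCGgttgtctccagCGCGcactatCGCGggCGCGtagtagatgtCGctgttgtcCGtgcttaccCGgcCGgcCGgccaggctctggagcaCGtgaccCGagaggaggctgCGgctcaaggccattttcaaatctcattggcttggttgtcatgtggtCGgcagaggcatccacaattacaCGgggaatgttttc
LMX1B: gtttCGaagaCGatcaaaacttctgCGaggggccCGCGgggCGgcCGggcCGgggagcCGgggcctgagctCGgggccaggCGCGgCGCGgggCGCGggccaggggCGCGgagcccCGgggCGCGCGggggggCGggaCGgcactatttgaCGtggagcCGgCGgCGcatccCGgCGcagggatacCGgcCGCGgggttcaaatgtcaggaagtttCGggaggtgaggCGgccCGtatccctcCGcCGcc
TLX1: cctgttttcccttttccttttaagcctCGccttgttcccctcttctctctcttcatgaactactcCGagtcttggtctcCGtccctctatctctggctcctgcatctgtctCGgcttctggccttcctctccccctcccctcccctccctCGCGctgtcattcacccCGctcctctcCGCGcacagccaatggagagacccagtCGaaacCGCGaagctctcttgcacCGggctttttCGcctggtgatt
IL20RA: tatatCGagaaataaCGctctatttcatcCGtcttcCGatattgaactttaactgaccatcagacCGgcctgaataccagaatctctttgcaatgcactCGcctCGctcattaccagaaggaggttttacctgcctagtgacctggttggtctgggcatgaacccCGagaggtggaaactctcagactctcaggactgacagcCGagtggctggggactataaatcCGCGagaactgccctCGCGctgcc
ARHGEF12: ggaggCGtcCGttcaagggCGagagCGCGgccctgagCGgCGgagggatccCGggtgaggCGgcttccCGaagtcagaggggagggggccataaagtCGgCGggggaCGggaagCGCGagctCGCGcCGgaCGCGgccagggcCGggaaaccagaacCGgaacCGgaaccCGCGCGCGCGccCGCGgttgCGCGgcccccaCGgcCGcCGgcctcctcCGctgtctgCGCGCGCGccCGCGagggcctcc
CRIP1: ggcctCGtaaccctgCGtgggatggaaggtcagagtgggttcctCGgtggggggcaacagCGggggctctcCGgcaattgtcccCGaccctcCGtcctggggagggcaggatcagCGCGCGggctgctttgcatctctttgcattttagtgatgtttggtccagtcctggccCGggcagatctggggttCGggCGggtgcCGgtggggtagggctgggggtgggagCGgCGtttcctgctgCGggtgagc
The motif searched was CG, which reads the same on both strands. Of 15345 protein-coding genes with such an entry, 442 have their promoter window in a wide domain, and 99.5% of these hold a CG, against 96.9% of all. The median was 21 CGs per promoter in wide domains and 17 in all promoters. Of all promoters, 37.1% hold fewer CGs than IL20RA and 98.3% fewer than ARHGEF12, whose domains had log2 fold changes in H3K27me3 of -0.61 and -0.60.

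Among the 10 widest domains were the 4 HOX clusters, which encode the transcription factors of the body axis. HOXC spans chr12:53917069-54095191 (178 kb), HOXD with EVX2 chr2:176058189-176199186 (141 kb), HOXB chr17:48516231-48652329 (136 kb) and HOXA with EVX1 chr7:27143865-27263758 (120 kb). Coordinates are of hg38 as the tables list them. The others of the 10 widest lie at EN2 and CNPY1, LMX1B, PTK2, TLX1 and PAX2, with 1 domain 43.5 kb from the TSS of PAX2. Levels were compared per length as CPM per kb, that is, counts rescaled to the same TMM-scaled library total (CPM) and divided by the length of the interval. The HOXC domain had 177 and 168 CPM per kb with DMSO and 140 and 125 with PR-957. The median over all wide domains was 19.5 CPM per kb, with a range of 2.83 to 189. In 9 of the 10 widest domains both PR-957 libraries lay below both DMSO libraries. In the domain beside PAX2 the groups overlapped, with 21.8 and 20.7 CPM per kb in DMSO against 20.9 and 18.7 in PR-957. Of all 787 wide domains, PR-957 lay below DMSO in 474 and above it in 82, and of all 12355 tested loci in 2336 and 2372. These levels are TMM-scaled. With cyclic loess offsets the log2 fold changes of the 9 ran from -0.14 at HOXA and PTK2 to 0.02 at HOXC and EN2.

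**Figure D1:**
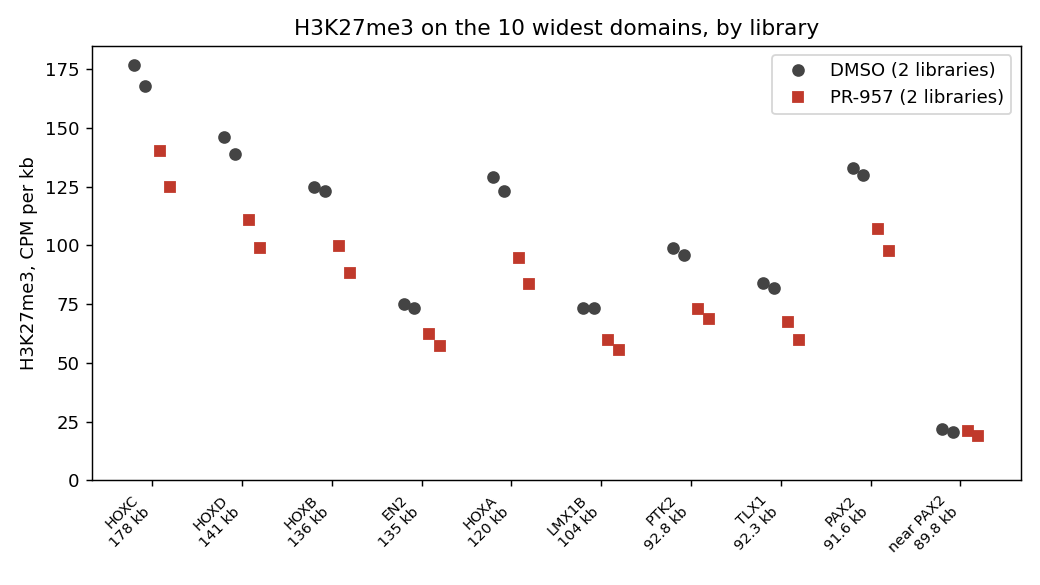
H3K27me3 level in CPM per kb (y axis, linear from 0) on the 10 widest domains (x axis, with the width in kb), where each circle is a DMSO library and each square a PR-957 library. The PR-957 libraries sit below the DMSO libraries in 9 domains, HOXC being the widest and densest, and the groups overlap in the domain near PAX2. CPM are TMM-scaled, and PR-957 lay below DMSO in 474 of all 787 wide domains.

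In PR-957, a smaller part of the H3K27me3 counts lay on wide domains. They took 73.8% and 73.6% of the counts on loci in DMSO and 71.3% and 70.1% in PR-957, a difference of -3.00 percentage points, and the groups did not overlap. The median log2 count per kb of wide domains exceeded that of the other loci by 2.51 and 2.54 in DMSO and by 2.22 and 2.17 in PR-957, a difference of -0.33. Both values are ratios within a library and need no scaling between libraries. The exact two-sided permutation p was 0.333 for each, the smallest that 2 libraries against 2 allow.

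Of the 787 wide domains, all of which passed the filter on low counts, 284 were lower and 3 higher in PR-957 by edgeR's quasi-likelihood test with TMM scaling (adjusted p under 0.05 over 12355 loci). Over all tested loci, 3.86% were called lower and 0.170% higher. The share of wide domains called lower was 36.1%, and that of the 11568 tested loci under 15 kb was 1.67%. Wide domains had a median of 1009 to 1299 counts per library and 19.5 CPM per kb, against 3.83 CPM per kb in the tested loci under 15 kb, so that a change of a given size is easier to call in a wide domain. The median log2 fold change was -0.15 in wide domains (quartiles -0.33 and -0.0050) and 0.05 in the loci under 15 kb. The changes were small, with 18 of the 287 called domains past 1.5-fold and 1 past 2-fold. The counts are relative within each library, with TMM factors of 0.926 and 0.935 in DMSO and 1.047 and 1.104 in PR-957. Whether the amount of the modification, or its recovery in the libraries, differed between the groups was not tested. Nor can fewer cells that carry the modification and less of it per cell be told apart in these data.

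The scaling decided how many domains were called in each direction. When only library size was used, 142 wide domains were lower and 148 higher, and the median log2 fold change over all tested loci stood 0.21 above that with TMM. Cyclic loess offsets gave 145 lower and 127 higher, and offsets that remove the trend on counts per kb gave 160 and 100. Median-of-ratios factors (254 and 2), TMM factors from the loci under 15 kb (286 and 2) and removal of the trend on GC content (394 and 0) kept nearly all calls on the lower side. Across the 7 scalings, 122 domains were called lower every time and 0 were called higher every time. In 16 domains the call changed from lower to higher with the scaling. Without DMSO replicate 1 the test called 109 domains lower, and without DMSO replicate 2 it called 111.

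**Figure D2:**
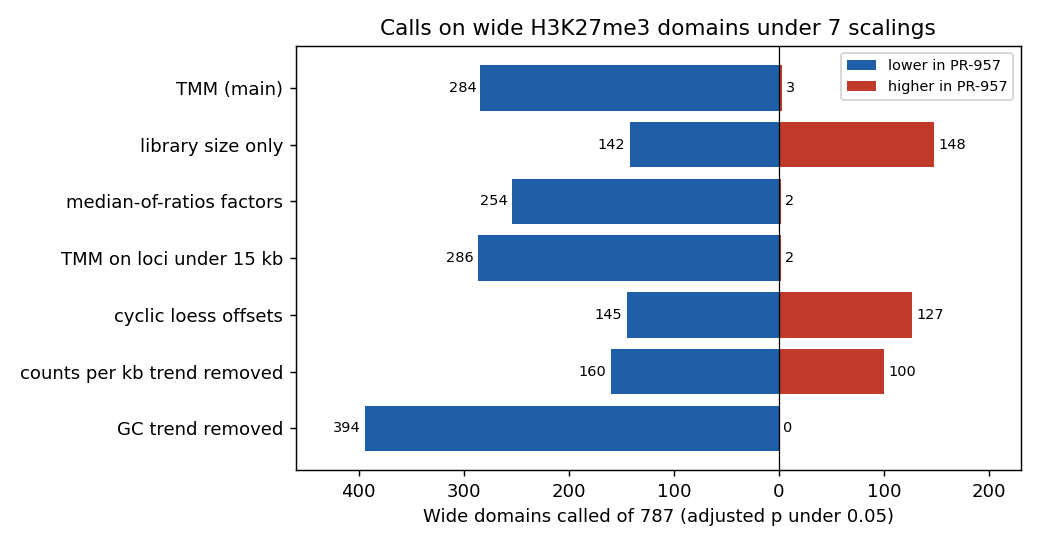
Number of wide H3K27me3 domains called lower (bars to the left) and higher (bars to the right) in PR-957 under 7 scalings, of 787 domains. TMM gives 284 lower and 3 higher, whereas library size alone gives 142 and 148.

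Under each of the 7 scalings the log2 fold change rose with the GC content of the domain. The Spearman correlation across the 787 domains was 0.60 under TMM and 0.49 to 0.67 under the 6 others, as a description, since the domains share their libraries. Library size alone, median-of-ratios factors and both TMM versions use 1 factor per library, which moves all domains by about the same amount. Their shared value of 0.60 is therefore 1 result and not separate ones. The other scalings could alter it, and gave 0.65 with cyclic loess offsets, 0.67 with the counts per kb trend removed and 0.49 after removal of the GC trend. That trend was fitted over all tested loci, and its removal left a trend in the wide domains, whose median moved from -0.15 to -0.25. In the lowest tercile of GC (39.1% to 50.4%), 167 of 263 domains were lower, with a median of -0.32. In the highest tercile (54.9% to 67.3%), 28 of 262 were lower and 3 higher, with a median of -0.02, and with library size alone 6 were lower and 110 higher. The mean GC content weighted by counts was 52.5% in each DMSO library and 53.0% and 52.9% in those of PR-957. The lowest tercile took 33.5% of the wide-domain counts in each DMSO library and 30.4% and 31.1% in PR-957, and the groups did not overlap (exact permutation p = 0.333). Libraries of the same treatment differed less along GC. The log2 ratio changed by 0.25 per 10 points of GC between PR-957 and DMSO, by 0.056 between the PR-957 libraries and by -0.011 between the DMSO libraries. Whether library preparation shifted base composition between the groups was not tested.

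**Figure D3:**
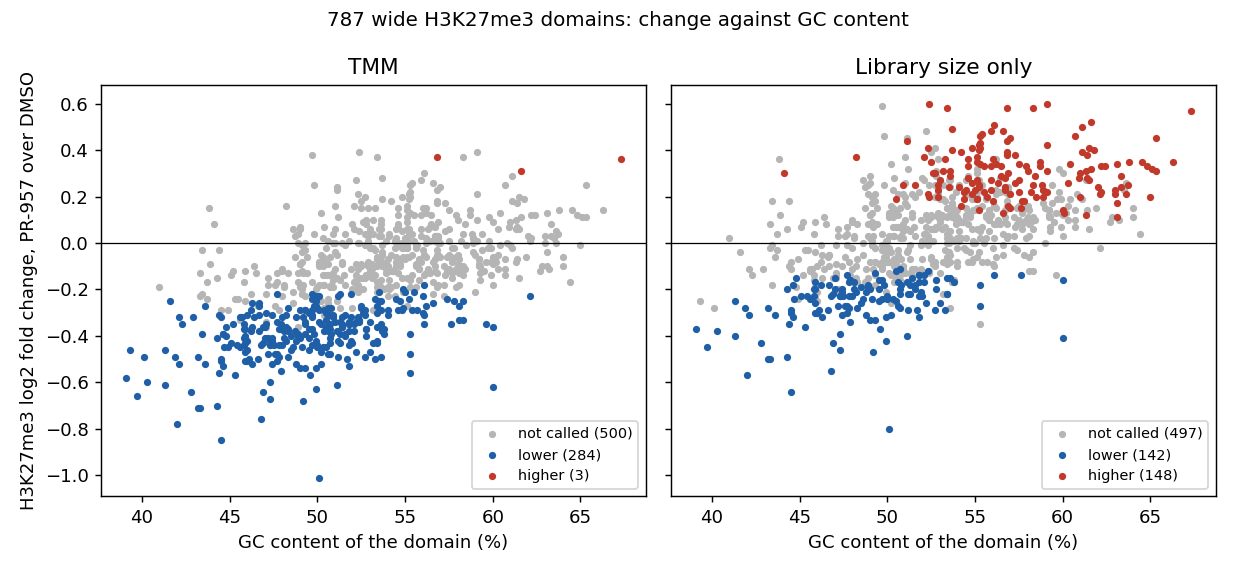
H3K27me3 log2 fold change of PR-957 over DMSO (y axis) against the GC content of the domain in percent (x axis) for 787 wide domains, under TMM (left) and library size only (right), with called domains in color. The cloud rises with GC in both panels, which differ by about the same shift for all domains. With library size only, 110 of the 148 higher calls lie in the highest GC tercile, which starts at 54.9%.

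The level moved with the change as well. Their Spearman correlation was -0.40 under TMM, -0.18 with cyclic loess offsets and -0.11 with the counts per kb trend removed, as a description. The log2 ratio of PR-957 replicate 1 over replicate 2 also moved with the level (0.27), and that of the DMSO libraries did not (0.01). In the densest tercile (27.7 to 189 CPM per kb) 163 of 263 domains were lower, with a median of -0.29, and in the sparsest tercile (2.83 to 13.6) 37 of 263 were lower, with a median of -0.06. Sparse domains also have fewer counts, so that fewer can be called. Among domains in both the lowest GC and the densest tercile, 84 of 89 were lower, with a median of -0.41 under TMM and -0.20 with library size alone. Among those in the highest GC and the sparsest tercile 1 of 75 was lower, with medians of 0.02 and 0.23. By width, 130 of 263 domains of the widest tercile and 56 of 262 of the narrowest were lower. Under cyclic loess offsets the widest tercile had 75 lower and 55 higher (median 0.00, against 0.04 in the narrowest), and the densest had 87 lower and 60 higher. By chromosome, the median was highest on chromosome 19 (0.03 in 46 domains) and among the lowest on chromosome 13 (-0.33 in 18 domains). The median GC content of these domains was 55.1% and 47.6%.

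Most wide domains at developmental transcription factors were lower. The genes of these lists were in wide domains more often than the 3.54% of all protein-coding genes. These lists and those below were chosen with earlier results of these data known, so the shares are a description. Of 39 HOX genes 35 had their TSS in a wide domain, of 97 other homeobox genes 66, of 52 paired box, forkhead, T-box, SOX and GATA genes 35, and of 54 bHLH and other developmental factors 33. All 5 HOX domains were lower, the fifth being that of HOXB13 (log2 fold change -0.49). The median of the 5 was -0.44, beside -0.15 over all wide domains and 0.03 over all tested loci. It stayed below 0 under all 7 scalings (-0.51 to -0.07), but HOXC turned to 0.02 with cyclic loess offsets, and 3 of the 5 were called lower under every scaling. The HOXA domain holds TSS from HOXA3 to HOXA13 and that of EVX1. It was counted on 1 interval, and where in the domain the change lay was not tested. It had 15472 and 14704 CPM in DMSO and 11334 and 10016 in PR-957, 15088 ± 543 against 10675 ± 932 (SD, n = 2). The log2 fold change was -0.50 (standard error 0.057, edgeR adjusted p = 2.36e-15). The groups did not overlap. With cyclic loess offsets the change shrank to -0.14 and was still called (edgeR adjusted p = 6.34e-10). Without DMSO replicate 1 it was -0.49 and was no longer called (edgeR adjusted p = 0.112). The HOXB, HOXC and HOXD clusters lost the call without either DMSO replicate, with log2 fold changes of -0.37 to -0.51 and edgeR adjusted p of 0.113 to 0.612. On a list of 21 KMT2A targets, made from the genes the study names with its HOXA cluster written out gene by gene, the 7 with their TSS in a wide domain all lie in the HOXA domain.

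Among the other homeobox genes, which pattern brain, limbs and inner organs, 55 of 63 domains were lower, with a median of -0.37 (-0.46 to -0.13 over the scalings), while up to 3 were higher and at least 32 lower under another scaling. Examples are MEIS2 (-0.60), LHX9 (-0.52), SIX2 (-0.50) and EN1 (-0.47). Of the 8 not called, IRX4 (0.01) and DLX3 (-0.09) were nearest to 0. In the paired box, forkhead, T-box, SOX and GATA list 31 of 34 were lower, with a median of -0.39 (-0.46 to -0.14, with up to 3 higher and at least 20 lower under another scaling), among them TBX3 and TBX5 (-0.54 each), EOMES (-0.52), PAX6 (-0.48) and GATA3 (-0.45), while TBX1 (-0.04), GATA5 (-0.07) and SOX8 (0.04) were not called. Of the bHLH and other developmental factors 24 of 31 were lower, with a median of -0.34 (-0.41 to -0.13, with up to 1 higher and at least 13 lower), such as TWIST1 (-0.56) and NR2F2 (-0.52), and MYOD1, the muscle regulator, had 0.39 and was not called (edgeR adjusted p = 0.193). Together, 131 domains hold a TSS of these 4 lists, and 113 of them were lower, against 171 of the other 656. Their median level was 50.0 CPM per kb and their median GC content 50.2%, against 16.4 and 53.4% in the other domains. Within the lowest GC tercile, 61 of 66 domains of the 4 lists and 106 of 197 others were lower, with medians of -0.41 and -0.29 and median levels of 45.7 and 15.6 CPM per kb.

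Lists of other roles had shares in wide domains of 31.7% for secreted signals, 17.1% for blood lineage factors, 12.5% for imprinted genes and 11.8% for neuronal receptors and channels, beside 3.54% of all protein-coding genes. Their counts of lower domains stand beside the 36.1% of all wide domains. Of the 13 domains of secreted signals 7 were lower (53.8%, median -0.21), such as SHH (-0.33) and WNT5A (-0.32), but with library size alone the call was lost in all 7 and the median was 0.00. Of the 6 blood lineage factors in wide domains, MECOM (-0.37), TAL1 (-0.35) and IRF4 (-0.29) were lower, whereas GFI1B (-0.19), BCL11B (-0.19) and TCF7 (-0.10) did not pass. Of 8 neuronal receptors and channels 4 were lower, GAD2 (-0.41), GAD1 (-0.33), SLC6A5 (-0.31) and SLC32A1 (-0.22), but with library size alone none of the 4 was called, 2 others were higher and the median turned from -0.19 to 0.02. IGF2 and INS shared a domain that was lower (-0.23), as was that of DLX5 (-0.44), the only imprinted genes of 24 in wide domains. SFRP1 (-0.23), a Wnt antagonist, was the only 1 of 17 cell cycle inhibitors and tumor suppressors. The calls at IGF2, SFRP1, IRF4, GAD1 and SLC32A1 were lost with library size alone (-0.12 to -0.01), cyclic loess offsets, removal of the counts per kb trend and without either DMSO replicate. Of 510 zinc finger genes 4 lay in wide domains, ZNF704 (-0.23), ZNF423 (-0.01), ZNF467 (0.02) and ZNF469 (0.10), which did not pass under TMM, while library size alone called 3 of them higher. No promoter of 53 clustered protocadherins or 415 olfactory receptors lay in a wide domain.

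Of the 10 lower domains with the smallest p-values, 5 held no protein-coding TSS. Over all wide domains, 61 of the 252 without such a TSS were lower (24.2%), beside 223 of the 535 that hold at least 1 (41.7%). The domain near DOCK9 (chr13:99039351-99068852, 61.3 kb from its TSS) had 649 and 657 CPM in DMSO and 419 and 382 in PR-957 (log2 fold change -0.71, standard error 0.073, edgeR adjusted p = 4.15e-18). That near SKIDA1 (chr10:21498328-21520667, 5.01 kb from the TSS) had 504 and 469 against 288 and 287 CPM (-0.76). The domain nearest to MEF2C (chr5:88659013-88696975) lies 186 kb from the gene's canonical TSS and was the densest of these, with 3429 and 3249 against 2274 and 2219 CPM (-0.57). Those near LIFR (chr5:38440341-38474852, -0.64), which encodes a cytokine receptor, and near GPAM (chr10:112221289-112237006, -0.85), which encodes an enzyme of glycerolipid synthesis, followed. Both groups' libraries lay apart in each of these 5 domains, which the rule that chose them required.

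Domains at promoters with small p-values were those of IL20RA (chr6:137018768-137054048), a cytokine receptor subunit, ARHGEF12 (chr11:120329152-120370278), a guanine nucleotide exchange factor, and the transcription factors TBX3 and SP9. The IL20RA domain had 1073 and 1003 CPM in DMSO and 681 and 678 in PR-957 (log2 fold change -0.61, standard error 0.067, edgeR adjusted p = 2.47e-16). The ARHGEF12 domain had 1147 and 1050 against 720 and 733 CPM (-0.60). Both domains are poor in GC (41.3% and 40.3%), although the 250 bases before the ARHGEF12 start are among the promoters richest in CG. The single domain past 2-fold, which was named after its value was seen, lies 65.1 kb from PLXNA1 (chr3:126901217-126917992). It had 133 and 171 CPM in DMSO and 74.9 and 76.1 in PR-957 (log2 fold change -1.01).

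The 3 higher domains were those at CRIP2 and CRIP1 (chr14:105470805-105488541), which encode LIM domain proteins, near ENGASE (chr17:79090259-79111364) and near ENHO (chr9:34547456-34562966). The CRIP2 and CRIP1 domain had 876 and 898 CPM in DMSO and 1195 and 1090 in PR-957 (log2 fold change 0.36, standard error 0.066, edgeR adjusted p = 2.64e-06), and its GC content of 67.3% was the highest of all wide domains. It was not called after the GC trend was removed (0.15). The other 2 had 0.31 (adjusted p = 0.00761, edgeR) and 0.37 (adjusted p = 0.0413, edgeR), and were lost there too.

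Under TMM and each of 16 alternatives in scaling, test, filter, interval and libraries, 82 wide domains were lower every time and 0 were higher every time. Their log2 fold changes ran from -1.01 to -0.40. Their median GC content was 47.4% and their median level 38.6 CPM per kb, beside 52.7% and 19.5 in all wide domains. Of these 82, 58 held a protein-coding TSS and 36 a TSS of the 4 developmental lists, among them TBX3, SIX3, PAX6, NR2F1, NR2F2, HAND2 and GATA3, while 24 held no TSS. Of all 787 wide domains, 535 held a protein-coding TSS and 131 a TSS of these lists. The same count for loci under 15 kb is not given here. No HOX cluster was among the 82.

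At the width limit, the domain at ANKRD60 (15004 bp, chr20:58215316-58230320) had 281 and 369 counts in DMSO and 310 and 352 in PR-957, and that near FAM166C (15024 bp, chr2:26572231-26587255) had 236 and 252 against 265 and 312. Just outside lay loci near C8orf90 (14985 bp), with 190 and 236 against 298 and 327 counts, and near CACNA1I (14983 bp), with 449 and 566 against 590 and 712. The log2 fold changes were -0.22 and -0.02 inside the limit and 0.30 and 0.11 outside it. Neither domain inside the limit was called. Both signs were common on each side, with quartiles of -0.24 and 0.059 in the narrowest tercile of wide domains and -0.21 and 0.36 in loci under 15 kb.

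Inside wide domains, 4 loci of H3K27ac, 13 of H3K4me1 and 4 of H3K4me3 were called. A locus was counted in a domain when the domain covered at least 50% of its widest interval. H3K4me3, a mark of promoters, had 579 loci in 418 wide domains, at a median of 4.46 CPM per kb against 12.4 over all its loci. Of these, 0 were lower and 4 higher in PR-957, beside 0.0310% and 0.167% of all 16122 tested H3K4me3 loci (at an unadjusted p under 0.05, 8 were lower and 58 higher, and DESeq2 called 1 of the 579). The 4 were at NOL3, GADD45G, B4GALNT1 and PAX6, in domains whose H3K27me3 was lower under TMM, as it was in 182 of the 418 domains with an H3K4me3 locus. In the B4GALNT1 domain H3K27me3 had a log2 fold change of -0.21 under TMM and -0.0 with library size alone. At NOL3, an inhibitor of apoptosis, H3K4me3 was 11.5 and 11.1 CPM in DMSO and 31.1 and 27.3 in PR-957 (log2 fold change 1.37, standard error 0.18, edgeR adjusted p = 2.26e-10), and the H3K27me3 of its domain was 386 and 398 against 260 and 252 CPM (-0.62). At GADD45G, a stress-induced growth regulator, H3K4me3 was 41.6 and 35.4 against 60.6 and 54.8 CPM (0.58), and H3K27me3 was 179 and 169 against 111 and 113 (-0.63). In both domains the libraries of the groups stood apart for both modifications, in opposite directions.

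H3K27ac, a mark of active promoters and enhancers, had 417 loci in 272 wide domains, at a median of 4.13 CPM per kb against 5.63 over all its loci. Of these 1 was lower and 3 higher, beside 0.108% and 0.0229% of all 30621 tested loci. DESeq2 called 1 of the 417, and 0 to 2 were called with any 1 library left out. The lower locus covers HOXA3 to HOXA11, with 896 and 922 CPM in DMSO and 812 and 772 in PR-957 (log2 fold change -0.20), in the domain whose H3K27me3 was lower as well. The higher loci were at BCAR1 (3.54 and 5.79 against 15.9 and 14.8 CPM), near PRDM13 and at HES4. H3K4me1, found at enhancers and around promoters, had 609 loci in 402 wide domains, at a median of 3.73 CPM per kb against 4.28. Of these 13 were lower (2.13%) and 0 higher (109 and 10 at an unadjusted p under 0.05), beside 0.764% and 0.790% of all 34927 tested loci. Loci in wide domains are richer in GC than all loci. At a GC content of 55.5% to 63.7%, 9 of 305 loci in wide domains were lower and 0 higher. In no H3K27me3 locus the counts at that GC content were 69 and 6 of 2827. The 13 include FOXD1 (13.5 and 14.3 against 4.13 and 6.42 CPM, log2 fold change -1.35), DLX1, NR2E1, NKX2-3 and a locus near HOXA11, and DESeq2 called 0 of the 609.

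The medians of these loci were shifted, to 0.14 for H3K27ac, 0.13 for H3K4me3 and -0.17 for H3K4me1, against 0.0072, -0.0010 and 0.0053 over all tested loci, and with library size alone they were 0.16, 0.14 and -0.09. Loci in wide domains are rich in GC, with a median of 59.8% for H3K4me1 against 45.6% overall. Among loci in the same GC range that lie in no H3K27me3 locus, the median was 0.0080 for H3K27ac, 0.017 for H3K4me3 and -0.16 for H3K4me1. For H3K4me1 the shift was found at that GC content outside H3K27me3 too, whereas for H3K27ac and H3K4me3 it was found inside H3K27me3 loci, under 15 kb as well (0.13 and 0.090). These sets share a GC range but not a level. For H3K4me3 the median was 4.58 CPM per kb in wide domains and 5.7 in loci under 15 kb, against 12.5 outside H3K27me3. For H3K27ac the values were 4.03 and 4.51 against 5.54. Whether the shift goes with the level was not tested. Across domains, the change of the densest locus of another modification had a Spearman correlation with that of H3K27me3 of -0.12 for H3K4me3 (418 domains), -0.05 for H3K27ac (272) and 0.05 for H3K4me1 (402), as a description over loci of the same libraries. Domains with an H3K4me3 locus were lower in 182 of 418 and those without in 102 of 369, with median levels of 26.8 and 13.8 CPM per kb.

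**Figure D4:**
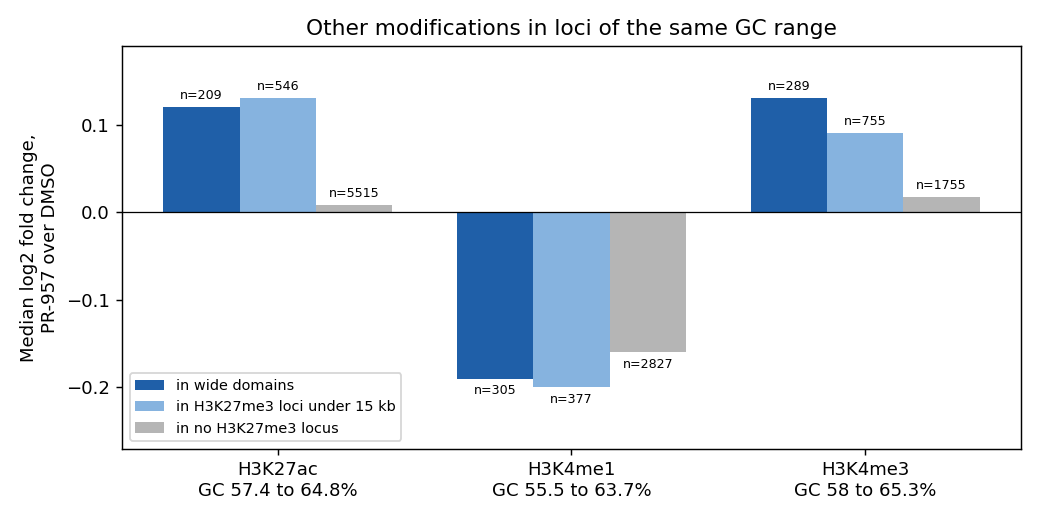
Median log2 fold change of PR-957 over DMSO (y axis) for H3K27ac, H3K4me1 and H3K4me3 loci in wide H3K27me3 domains, in H3K27me3 loci under 15 kb and in no H3K27me3 locus, all within the GC range given under each modification, with n loci per bar. H3K27ac and H3K4me3 are shifted up inside H3K27me3 loci, whereas H3K4me1 is shifted down by about as much outside them (-0.16) as in wide domains (-0.19). The sets were not matched on level.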

How the data were processed

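Per the submitters' processing notes, reads were handled with Trimmomatic 0.39, Bowtie2 2.2.5 (hg38), Picard 2.27.1, SAMtools 1.7, SEACR 1.3 and deepTools 3.5.1. The deposited values are whole-number counts on the intervals of each modification, without normalization by the authors. The sources used here do not name the counter. Whether the tables count coordinates from 0 or 1 is not stated, so coordinates are printed as listed.

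Overlapping intervals were merged, and each locus was represented by the counts of its widest interval. Loci were kept by filterByExpr of edgeR 4.0.16 (minimum count 10, R 4.3.3), scaled by TMM over loci and tested within each modification by the quasi-likelihood test (Benjamini-Hochberg, 0.05), without the replicate number as a block. Scripts were tested on simulated data. GC content was read from hg38, and TSS are those of Ensembl canonical transcripts in GENCODE release 44 (Python 3.11.15). Depth differed little between the H3K27me3 libraries, and the precision is set by 2 libraries per group.

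Named domains were the 10 widest, per direction the 10 called domains with the smallest p and groups that do not overlap, the 3 widest per gene list and 2 on either side of the width limit. The developmental genes given as examples, and those of the loci of other modifications, were chosen after their values were seen. The width rule, members and lists were chosen with earlier results of these data known. The alternatives were other scalings (loess span 0.3 for trends), DESeq2 1.42.0, no filter, all intervals, the interval with the highest mean count, widths of 10 and 30 kb, chromosomes 1 to 22, the replicate block and leaving out each library. The GC range for other modifications was chosen after seeing the data.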

Additional observations from a re-analysis of the deposited data

How the results depend on the processing

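The count of wide domains lower in PR-957 (284) was 142 with library size alone, 145 with cyclic loess offsets, 160 with the counts per kb trend removed and 108 at a width of 30 kb or more. It was 109 to 366 with 1 library left out, and the low values are those without DMSO replicate 1 (109) or 2 (111). With the replicate block it was 287, and the block moved no count of calls by over 1.5 times. The deviations of same-numbered H3K27me3 libraries had a correlation of 0.05 over wide domains. The labels do not say whether same-numbered libraries were prepared together, and this correlation cannot show it. The count higher (3) was 148, 127 and 100 under the same 3 scalings, 0 with the GC trend removed, 32 with all overlapping intervals, 9 and 0 at widths of 10 and 30 kb, and 0 to 12 with 1 library left out (0 without either DMSO replicate, 1 without PR-957 replicate 1, 12 without PR-957 replicate 2). All 109 domains called lower without DMSO replicate 1 were among the 284, and 264 of the 268 called by DESeq2.

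The difference in the share of counts (-3.00 points) and in the wide minus narrow level kept its sign under every alternative run, and the latter was -0.292 and -0.357 at widths of 10 and 30 kb and -0.352 to -0.303 with 1 library left out, the former -3.59 to -2.41. The causes of these differences were not tested.

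For H3K27ac, 4 loci in wide domains were called, 1 by DESeq2 and 0 to 2 with 1 library left out, whichever it was. For H3K4me1, 13 were called, 2 with library size alone, 0 by DESeq2, 6 at 30 kb and 0 to 15 with 1 library left out (1, 0 and 4 without DMSO replicate 1, DMSO replicate 2 and PR-957 replicate 1). For H3K4me3, 4 were called, 1 by DESeq2, 2 at 30 kb and 1 to 4 with 1 library left out (1 without DMSO replicate 2 or PR-957 replicate 1).

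Among the named domains, the log2 fold change turned above 0 with cyclic loess offsets at HOXC (0.02), EN2 (0.02), near PAX2 (0.14), GATA5 (0.18), BHLHE23 (0.12), WNT10A (0.03) and ZNF423 (0.19), with library size alone at GATA5 (0.13), WNT10A (0.00) and ZNF423 (0.20), and with the counts per kb trend removed at GATA5 (0.12) and WNT10A (0.02). In these the change had been called under TMM or was called on the other side. Domains that were called in neither setting also crossed 0, such as BCL11B (0.02 with cyclic loess offsets, 0.01 with library size alone), GFI1B (0.02) and BMP7 (0.01) with library size alone, and the domain near PAX2 (0.11), BHLHE23 (0.06) and the domain near FAM166C (0.19) with library size alone. With 1 library left out, the remaining library of that group is assumed to vary like the other groups.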
